A study of Mus musculus with 4 samples.

Results

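A set of 9 transcription factors that pattern the embryonic forebrain, Otx1, Otx2, Six3, Nr2e1, Emx2, Pax6, Lhx2, Dlx1 and Dlx2, were read on 4 single-colour Agilent arrays of mouse neural stem cells. Their probes were taken by the gene name that the array's own annotation gives, and they made up 9 of 22326 genes and 13 of 55681 probes. The 9 genes and the gene lists used below were chosen with earlier results of these data known. Counts among them, set beside the shares over all genes, are therefore descriptions and no test of the set. Total RNA came from 4 cultures, 1 array each. All 4 were p53-/-, came from brain of E14.5 embryos and grew in serum-free medium for neural stem cells. NSC were neural stem cells, and NSC-Ceacam1L were such cells whose label names Ceacam1L, the long form of the adhesion molecule Ceacam1. NSCL61 is a cell line, known as a glioma-initiating derivative of p53-deficient neural stem cells that express active Ras, and NSCL61-Ceacam1sh is, by its label, that line with a short hairpin RNA against Ceacam1. After transfection, hygromycin was applied for 1 week. The labels do not say whether NSC and NSCL61 carried an empty vector, or whether a culture was a pool or a clone.

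These factors divide the front of the neural tube into territories. Otx1, Otx2 and Six3 act early, in the specification and protection of forebrain and midbrain identity against posterior signals. Emx2, Pax6 and Lhx2 mark cortical progenitors, where Emx2 and Pax6 are known for opposing gradients and Lhx2 for holding cortical identity. Nr2e1, also called Tlx, keeps neural stem cells dividing. Dlx1 and Dlx2 are neighbouring homeobox genes of the ventral forebrain, known for driving GABAergic interneuron fate.

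With 1 array per group no difference below has a replicate check and no p-value is given. A level is the log2 of a probe's signal after division by its array's 75th percentile, so that 0 is that percentile. An error after ± is the scanner software's modelled error on the log2 scale, which covers no spread between cultures. A probe counts as seen where the software calls it well above background, and "higher" and "lower" mean a difference of at least 1 on the log2 scale (2-fold) with the probe seen on the brighter array. Levels are compared between arrays and not between probes. Since RNA was taken from whole cultures, fewer cells of a type and less RNA per cell cannot be told apart.

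The hairpin array stood apart from the other 3. Across 12478 genes seen on all arrays, the correlation of its levels with those of the other arrays was 0.840 to 0.861, against 0.933 to 0.973 among the other 3. Xist, the RNA that coats the silenced X, read -4.05 there and 0.42 to 1.85 elsewhere. All 18 neural stem cell markers were seen on both NSC arrays, 17 of them on the NSCL61 array and 16 on the hairpin array. Many of those still seen were much dimmer there. The median level of the list was 3.98 on NSCL61 and -0.46 on the hairpin array, with 11 markers lower and 2 higher. No probe was named Ceacam1, so neither manipulation could be checked. The hairpin comparison has no version without this array, and all 4 arrays lay on 1 slide.

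The brightest probes of Otx2, Six3 and Nr2e1 were each seen on 3 arrays and not on the hairpin array, and promoter windows of these genes are printed here for that reason. Otx2 as a gene was seen there, by its other probe. The windows run from 250 bases before to 50 after a RefSeq transcript start (GRCm38.p6, 5' to 3' on the gene's strand). In the Otx2 window, capitals mark the 60 bases of an array probe that behaved differently from the other Otx2 probe. In the Six3 window they mark matches to CCAAT on either strand, and in the Nr2e1 window the match to AAGTCA, a core that the Nr2e1 protein is known to bind.
Otx2 chr14:48665060-48665359, minus strand: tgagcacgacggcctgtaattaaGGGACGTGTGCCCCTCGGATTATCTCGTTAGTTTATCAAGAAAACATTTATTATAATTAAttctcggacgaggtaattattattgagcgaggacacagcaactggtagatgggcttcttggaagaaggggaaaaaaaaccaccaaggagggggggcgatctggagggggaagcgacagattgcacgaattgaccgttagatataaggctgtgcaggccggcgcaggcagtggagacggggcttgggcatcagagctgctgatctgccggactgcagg
Six3 chr17:85620584-85620883, plus strand: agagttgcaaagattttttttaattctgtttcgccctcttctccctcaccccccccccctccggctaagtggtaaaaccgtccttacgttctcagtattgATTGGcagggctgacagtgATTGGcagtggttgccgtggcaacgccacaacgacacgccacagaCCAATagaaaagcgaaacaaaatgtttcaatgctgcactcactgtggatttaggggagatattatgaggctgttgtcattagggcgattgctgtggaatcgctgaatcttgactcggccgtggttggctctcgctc
Nr2e1 chr10:42583541-42583840, minus strand: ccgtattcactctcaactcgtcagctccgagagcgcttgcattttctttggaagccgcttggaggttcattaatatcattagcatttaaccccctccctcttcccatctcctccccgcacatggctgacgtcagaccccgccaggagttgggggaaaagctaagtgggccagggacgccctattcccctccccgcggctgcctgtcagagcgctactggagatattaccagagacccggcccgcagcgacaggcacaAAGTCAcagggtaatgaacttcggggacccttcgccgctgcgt
The printed Otx2 window held TAATTA, a core bound by many homeodomain proteins, 3 times. It held TAATCC, the core that OTX proteins bind, once on the opposite strand. The second TAATTA, at -174 to -169 counted from the start, lies within the last bases of the probe. Windows of other RefSeq Otx2 starts, not printed, held TAATTA 0 or 1 times and TAATCC 0 times. The Six3 and Nr2e1 windows held neither the homeodomain core nor the OTX core. Searched on both strands of 32851 promoter windows of the same length, TAATTA was found in 5.29% of them, TAATCC in 7.06%, AAGTCA in 15.1% and CCAAT in 37.4%. Over the 13 windows found for 8 of the 9 genes, the median GC content was 58.0% and the median number of CpG pairs 18, against 52.7% and 7 over all windows. These matches describe letters and show no binding.

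**Figure D1:**
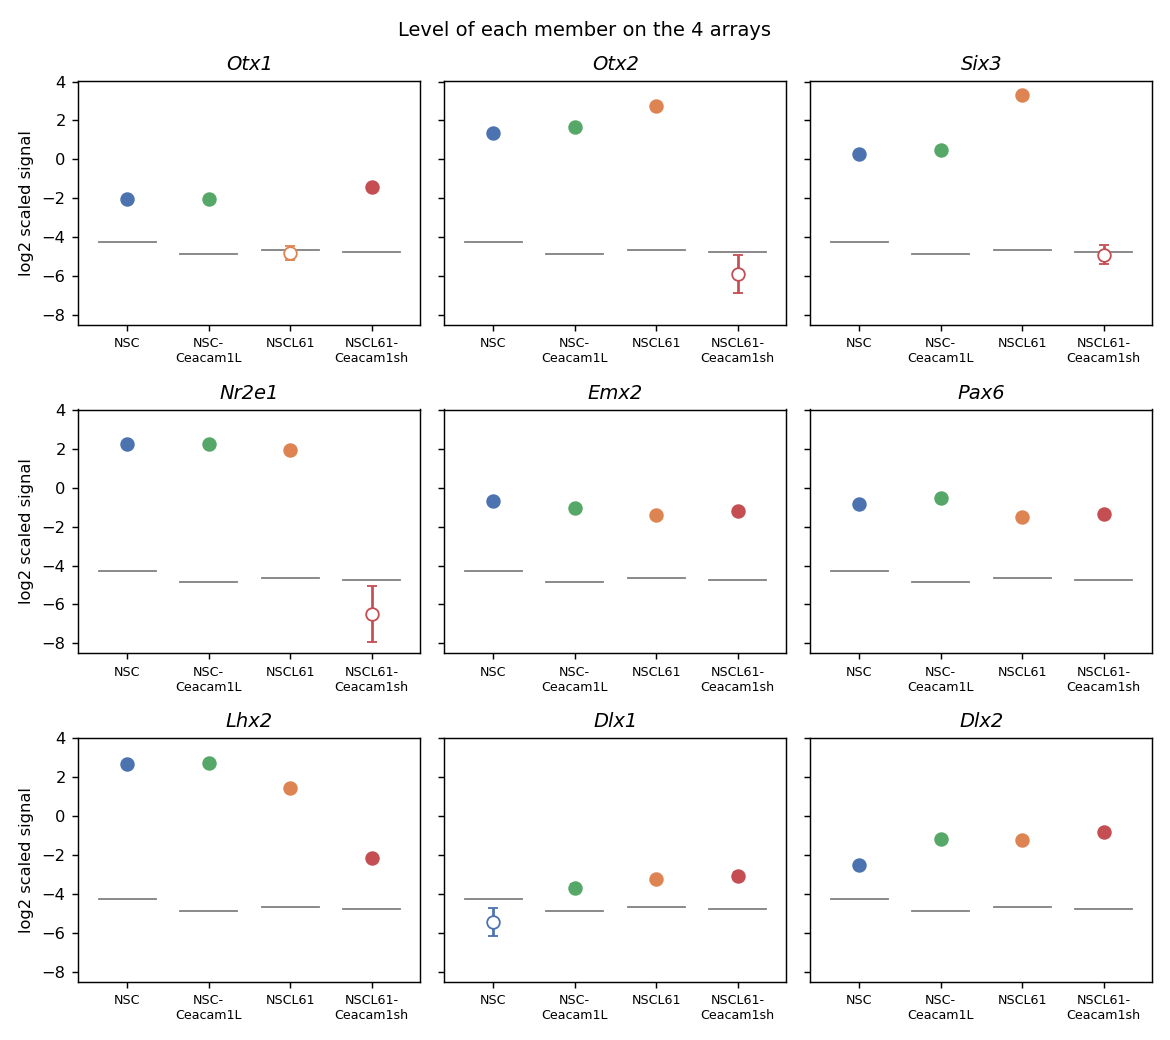
Level of each of the 9 genes on the 4 arrays (log2 of the signal scaled to the array's 75th percentile; points with modelled error, open where the probe was not well above background). Grey bars give the lowest level among probes well above background on that array. The probes shown for Otx2, Six3 and Nr2e1 lie below the bar on the hairpin array only, Otx1 on NSCL61 only and Dlx1 on NSC only.

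Otx2, a homeobox factor needed for forebrain and midbrain formation, had 2 probes. The probe at chr14:49277855-49277914 (mm9, minus strand, transcript NM_144841) read 1.36 ± 0.14 on NSC, 1.66 ± 0.14 on NSC-Ceacam1L and 2.75 ± 0.14 on NSCL61. On NSCL61-Ceacam1sh it read -5.90 ± 0.98, where it was not well above background. The brightest array was thus NSCL61, and the dimmest, the hairpin array, gave at least 180.5-fold less signal at this probe. Here "at least" takes the dim array at the lowest signal seen on it, or at the probe's own value if that is higher. Such a bound belongs to the scaling described above, leaves out the modelled error and need not hold under the alternative settings.

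The other Otx2 probe lies at chr14:49284952-49285011 (mm9, minus strand, transcript ENSMUST00000119739). Its 60 bases, the capitals of the Otx2 window above, sit 227 to 168 bases before a RefSeq Otx2 start. They also lie downstream of other RefSeq Otx2 starts, with windows at chr14:48667459-48667758 and chr14:48667595-48667894 (GRCm38.p6, minus strand). It was dim but seen on all 4 arrays, at -2.85, -3.01, -2.35 and -1.23 in the order NSC, NSC-Ceacam1L, NSCL61 and NSCL61-Ceacam1sh. The hairpin array was its brightest, with a difference from NSCL61 of 1.13 ± 0.22, opposite in direction to the other probe. Under the alternative settings this difference ran from 0.69, below 2-fold, with normexp to 1.58 with spike-in scaling. The gene's value below is that of the brighter probe, and Otx2 is therefore a statement about that probe.

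Six3, a homeobox factor of the most anterior neural plate and the eye field, read 0.28 ± 0.15 on NSC, 0.49 ± 0.14 on NSC-Ceacam1L and 3.31 ± 0.14 on NSCL61 at chr17:86023349-86023408 (mm9, plus strand). On NSCL61-Ceacam1sh it read -4.91 ± 0.49 and was not well above background. NSCL61 was 8.21-fold brighter than NSC, and at least 267-fold brighter than the hairpin array. A further Six3 probe, at chr17:86030070-86030129, was not well above background on any array.

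Next to Six3 lies Six3os1, a long non-coding RNA read from the opposite strand. Its probe at chr17:86010631-86010690 (mm9, minus strand) read 1.72 on NSC, 1.92 on NSC-Ceacam1L, 3.32 on NSCL61 and -6.75 on the hairpin array, where it was not well above background. As for Six3, the brightest array was NSCL61, here by 1.60 ± 0.20 over NSC. The hairpin culture lay at least 269-fold below NSCL61. Of the other Six3os1 probes, that at chr17:86006708-86006767 was well above background on NSCL61 only, at -2.84, and that at chr17:86014738-86014797 on no array. Of the antisense RNAs of other genes of the set, Emx2os was seen on NSC-Ceacam1L, at -4.53, and on NSCL61, at -4.16, by 1 of its 2 probes, and Otx2os1, Dlx1as and Pax6os1 were not seen on any array.

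**Figure D2:**
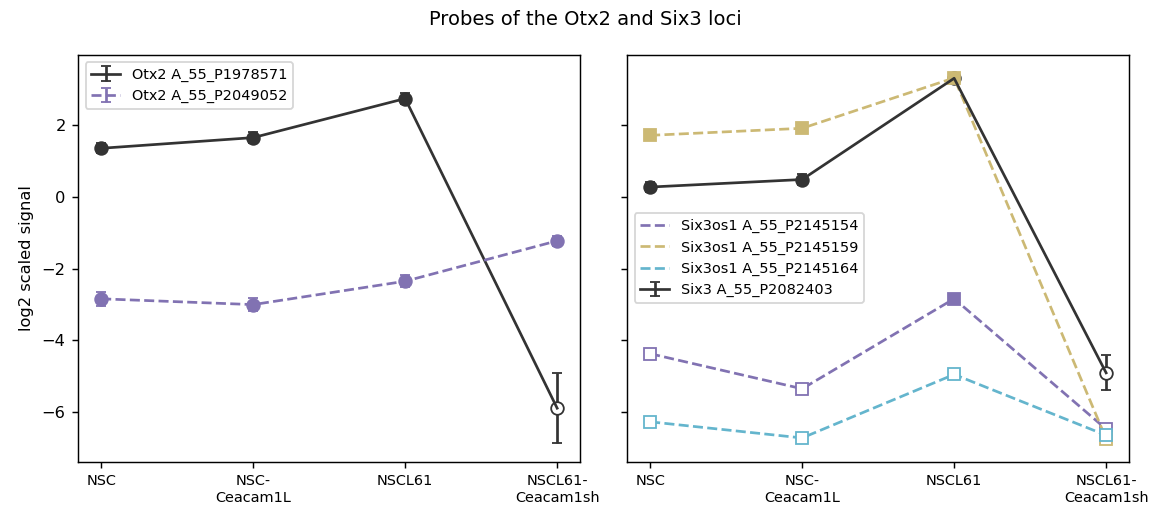
Left, the 2 Otx2 probes; right, the Six3 probe seen on 3 arrays and the 3 probes of its antisense neighbour Six3os1 (log2 scaled signal on each array; open symbols are not well above background; bars are modelled errors). The Otx2 probes part on the hairpin array, at -5.90 and -1.23. Six3 and the brightest Six3os1 probe are highest on NSCL61, at 3.31 and 3.32.

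Nr2e1, the orphan nuclear receptor of neural stem cells, read 2.24 ± 0.14 on NSC, 2.25 ± 0.14 on NSC-Ceacam1L and 1.93 ± 0.14 on NSCL61 at chr10:42281826-42281885 (mm9, minus strand). On NSCL61-Ceacam1sh it read -6.50 ± 1.45 and was not well above background. The first 3 arrays lay within 0.32 of each other on the log2 scale, and the hairpin array lay at least 102-fold below NSCL61.

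Lhx2, a LIM-homeodomain factor of cortical progenitors, was seen on all 4 arrays at chr2:38224933-38224992 (mm9, plus strand). It read 2.69 ± 0.14 on NSC, 2.73 ± 0.14 on NSC-Ceacam1L, 1.44 ± 0.14 on NSCL61 and -2.14 ± 0.16 on the hairpin array. The NSC arrays differed by 0.04 ± 0.20, less than the modelled error. NSCL61 was lower than NSC by 2.37-fold, and the hairpin culture lower than NSCL61 by 11.9-fold.

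Otx1, a paralogue of Otx2 active in cortex and sense organs, had the opposite order in the NSCL61 arrays. At chr11:21895767-21895826 (mm9, minus strand) it read -2.02 ± 0.16 on NSC, -2.05 ± 0.15 on NSC-Ceacam1L, -4.82 ± 0.38 on NSCL61 and -1.40 ± 0.15 on the hairpin array. It was not well above background on NSCL61 alone. The hairpin culture lay at least 9.49-fold above NSCL61, and NSCL61 at least 6.16-fold below NSC.

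Emx2 and Pax6 stayed within 2-fold. Emx2, a homeobox factor of the dorsal and caudal cortex, read -0.66, -1.02, -1.39 and -1.19 on NSC, NSC-Ceacam1L, NSCL61 and NSCL61-Ceacam1sh, with errors of 0.15, at chr19:59539142-59539201 (mm9, plus strand). Pax6, a paired-box factor of cortical progenitors and the eye, read -0.86, -0.52, -1.48 and -1.35 at chr2:105536454-105536513 (mm9, plus strand). In all 3 comparisons both genes differed by at most 0.73 in size on the log2 scale. The second Pax6 probe, at chr2:105524098-105524949, was seen on NSC-Ceacam1L only, at -4.29.

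Dlx1 and Dlx2 read below the 75th percentile on every array, and their probes lie near each other on chromosome 2. Dlx1 read -5.45 ± 0.74 on NSC, where it was not well above background, -3.68 ± 0.20 on NSC-Ceacam1L, -3.25 ± 0.19 on NSCL61 and -3.06 ± 0.18 on the hairpin array, at chr2:71371499-71371558 (mm9, plus strand). Dlx2 read -2.53 ± 0.17, -1.19 ± 0.15, -1.24 ± 0.15 and -0.79 ± 0.15 in the same order, at chr2:71381553-71381612 (mm9, minus strand). For both genes NSC was the dimmest of the 4 arrays. Another Dlx1 probe, at chr2:71367411-71367470, was not well above background on any array.

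Between NSC-Ceacam1L and NSC the labels imply a question on what added Ceacam1L does. Only Dlx1 and Dlx2 were higher and none of the 9 was lower, where 10.5% of 15313 genes evaluated were higher, 6.05% were lower and 16.5% were called in either direction. Dlx2 was 2.54-fold higher (log2 difference 1.34 ± 0.22), and Dlx1, not well above background on NSC, differed by 1.77 ± 0.76, which as a bound is at least 1.502-fold and so under 2-fold. Both calls were lost with normexp background correction, which gave 0.29 for Dlx1 and 0.92 for Dlx2. That setting adds an offset of 50 to every signal, which by itself makes log2 differences of dim signals smaller. The other 7 differed by -0.36 to 0.33, and the median over the 9 was 0.21, against -0.10 over all genes.

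Of 12 astrocyte markers, 9 were higher on NSC-Ceacam1L and none lower, with a median difference of 2.57 over the list. Their summed level was 10.4 on the log2 scale, against 8.95 on NSC. A summed level adds the unlogged signals of a list and is set mostly by its brightest probes. Gfap, the astrocyte filament protein, was higher by 7.33 and Clu, a secreted chaperone, by 4.72. Neuronal markers gave 3 higher and 0 lower of 11, with a median of 0.24, and oligodendrocyte markers 3 higher and 0 lower of 12. The part of these markers in the Dlx values was not tested. Among 15 other forebrain factors evaluated, none was higher and none lower. Of 16 genes known as downstream of members, 3 were higher and none lower: Cyp26b1, which breaks down retinoic acid, by 2.62, Rnd2, a small GTPase of migrating neurons, by 1.25 and Axl, a receptor kinase, by 1.20 on the log2 scale. Of 30 partner proteins of the members 1 was higher, Ldb2, which bridges LIM-homeodomain factors such as Lhx2, by 1.58, and 2 were lower, Tle6 and Lmo1, with differences of -1.21 and -1.11. Of 16 mid- and hindbrain factors 1 was higher, Gbx2, by 1.38, and 2 were lower.

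Between NSCL61-Ceacam1sh and NSCL61 the labels imply a question on what a hairpin against Ceacam1 does in the line. With the Xist level and the correlations given above, and no Ceacam1 probe, these arrays do not show that the culture labelled NSCL61-Ceacam1sh is that line, and the differences are between the arrays as labelled. Otx2, Six3, Nr2e1 and Lhx2 were lower and Otx1 was higher, where 24.2% of 15613 genes evaluated were lower and 23.5% higher, 47.7% in either direction. Since Otx2, Nr2e1 and Six3 were not well above background on the hairpin array at these probes, their differences are bounds: at least 267-fold for Six3, 180.5-fold for Otx2 and 102-fold for Nr2e1. The measured log2 differences, -8.22 ± 0.51, -8.64 ± 0.99 and -8.42 ± 1.45 in that order, rest on signals near background and give no order. Lhx2, seen on both arrays, differed by -3.57 ± 0.21. Otx1, not seen on NSCL61, was at least 9.49-fold higher, with a measured difference of 3.42 ± 0.41. Dlx2, Emx2, Dlx1 and Pax6 differed by 0.45, 0.21, 0.19 and 0.13, with errors of 0.21 to 0.26, and the median over the 9 was 0.13, against 0.01 over all genes. With normexp the differences were smaller, at -5.35 for Otx2, -4.91 for Nr2e1 and -5.77 for Six3, and Otx1 was higher by 1.42. All of these fall short of the bounds just given, so the bounds do not hold with normexp. Because its added offset shrinks differences of dim signals, normexp is no independent check of these bounds.

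**Figure D3:**
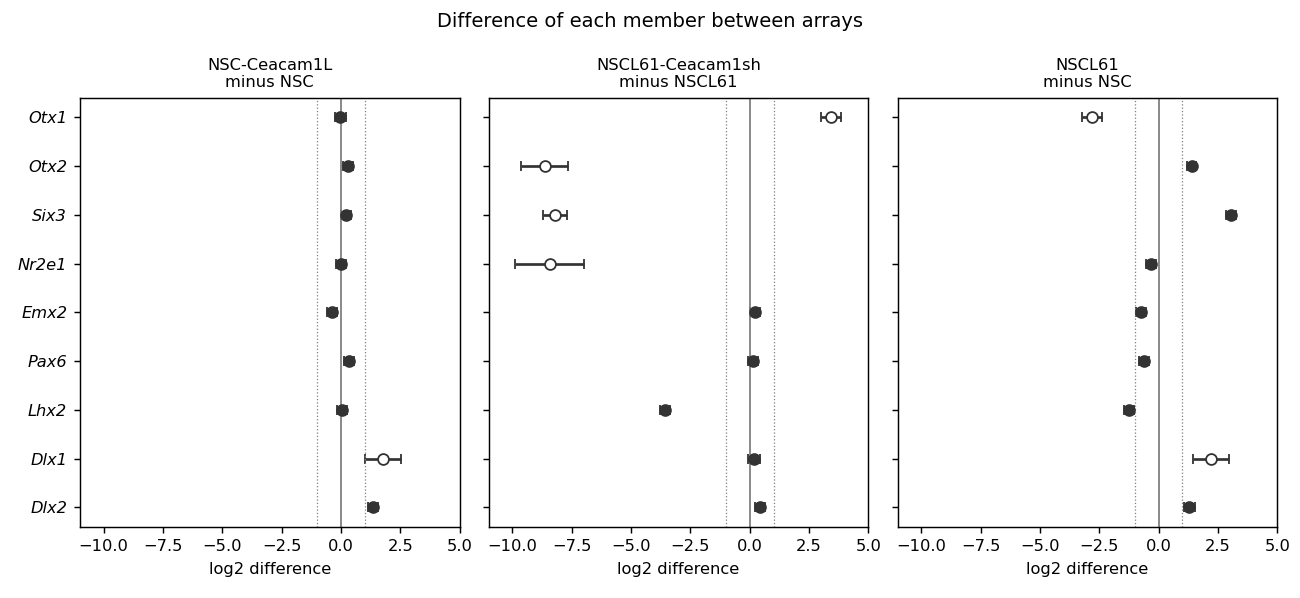
Log2 difference of each of the 9 genes in the 3 comparisons, with modelled errors; filled points were well above background on both arrays, open points on 1 only, and dotted lines mark 2-fold. Otx2, Nr2e1 and Six3 lie near -8 to -9 in the hairpin comparison, as open points whose size is a bound, while Emx2 and Pax6 stay inside 2-fold in all 3.

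Other forebrain factors went both ways in the hairpin culture. Of 18 evaluated, 8 were higher and 8 lower. Gli3, a mediator of Hedgehog signalling in dorsal forebrain, was higher by 2.14, Eomes, a factor of cortical intermediate progenitors, by 2.44, and Vax1, a factor of the ventral forebrain and optic stalk, by at least 12.6-fold. Gsx1, a ventral progenitor factor, was lower, with a difference of -6.03. Vax1 was named after its values were seen. The median over the list was -0.14, but 0.28 with median scaling, 0.31 with spike-in scaling and 1.36 over genes seen on both arrays.

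Genes of the mid- and hindbrain and spinal cord also went both ways, 3 higher and 6 lower of 16. Pax3, a dorsal neural tube and neural crest factor and a paralogue of Pax6, was higher by 7.69. En2, of the midbrain and hindbrain, differed by -7.09 and Irx1 by -1.99, and Dbx2, a factor of intermediate neural tube, was at least 516-fold lower. Paralogues of the members, some of them also in these lists, gave 4 higher and 5 lower of 17. Of the proteins that members work with, 6 of 30 were higher and 9 lower. Gmnn, which is known to bind Six3 and to control DNA replication, was higher by 3.01 and Pbx3, a homeodomain cofactor, by 2.13. Meis1, also a homeodomain cofactor, differed by -2.42 and Tle4, a corepressor of the Groucho family, by -1.96. Of 17 genes known as downstream of members, 6 were higher and 8 lower. Fabp7, a fatty acid binding protein of radial glia that Pax6 is known to activate, differed by -12.37, Dll1, a Notch ligand, by -6.41 and Rnd2 by -3.66, while Cyp26b1 was higher by 3.51. Pax6 itself differed by 0.13, and its part in the Fabp7 value was not tested.

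Markers of several cell types moved with these values. Neural stem cell markers were lower for 11 and higher for 2 of 18, with a median of -1.91 and a summed level of 10.1 on NSCL61 and 8.37 on the hairpin array. Most of the sum on the hairpin array came from Vim, which read 8.13 there and 8.76 on NSCL61. Of 11 astrocyte markers evaluated 10 were lower and none higher, of 12 oligodendrocyte markers 8 were lower and 1 higher, and of 10 neuronal markers 7 were lower and none higher. Fibroblast markers were higher for 8 and lower for 1 of 9, with a median of 4.48 and a summed level of 2.003 on NSCL61 and 5.86 on the hairpin array. Col3a1 and Col1a2, fibrillar collagens, were higher by 5.25 and 5.14. Of 10 mesothelial markers only 3 were seen on either array, of which 2 were higher and 1 lower. Msln was higher by 8.32, and Krt8 was lower, at -2.18 on NSCL61 and -3.96 on the hairpin array. Microglial markers gave 2 higher and 3 lower of 7, and endothelial markers 0 and 2 of 5. The part of these markers in the values of Otx2, Six3, Nr2e1, Lhx2 and Otx1 was not tested.

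**Figure D4:**
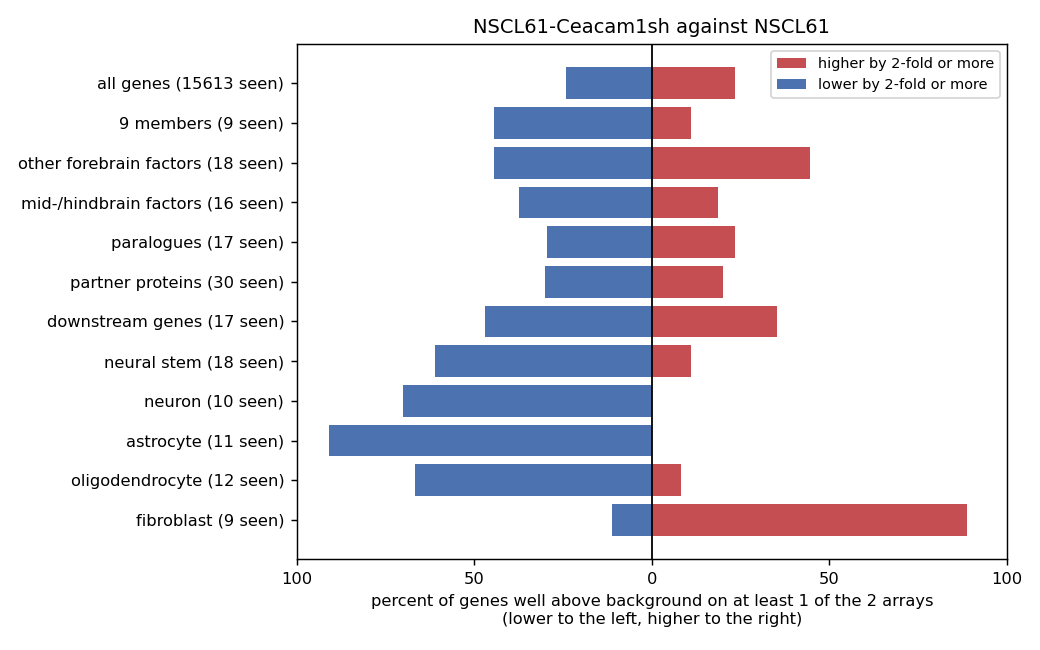
Share of genes 2-fold or more higher (right, red) and lower (left, blue) on NSCL61-Ceacam1sh than on NSCL61, in percent of the genes of each list seen on either array, with all genes at the top. Of the 9 members 1 was higher and 4 lower; the fibroblast list had 8 higher and 1 lower of 9.

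NSCL61 was also set against NSC, a comparison of a line with cells that do not share its history. It shares the NSC array with the first comparison and the NSCL61 array with the second. Six3, Dlx1, Otx2 and Dlx2 were higher and Otx1 and Lhx2 lower, where 14.4% of 15299 genes evaluated were higher, 14.0% lower and 28.4% either. Six3 was higher by 3.04 ± 0.20, Dlx1 by 2.20 ± 0.76 (at least 2.03-fold), Otx2 by 1.39 ± 0.20 and Dlx2 by 1.29 ± 0.22. Otx1 differed by -2.79 ± 0.41 and Lhx2 by -1.25 ± 0.20. With normexp, Dlx1 and Dlx2 were no longer called, at 0.62 and 0.91, and Otx1 differed by -1.06. The normexp differences of Dlx1 and Otx1, which include the added offset, fall short of their bounds. Nr2e1, Pax6 and Emx2 differed by -0.32, -0.62 and -0.73, and the median over the 9 was -0.32, against 0.03 over all genes.

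Paralogues of the members gave 7 higher and 1 lower of 17 in this comparison. Other Six genes were among the 7: Six2 was higher by at least 28.3-fold and Six4 by 2.17 on the log2 scale. Nr2f2, a nuclear receptor of caudal forebrain, was higher by 2.88. On the hairpin array, against NSCL61, Six2 differed by -4.11 and Six4 by 1.28, where Six3 differed by -8.22. Of 18 other forebrain factors 4 were higher and 3 lower; Gsx1 was higher by 1.92, and Gsx2, a ventral progenitor factor, lower by at least 7.73-fold. Of the antisense RNAs of members, Six3os1 was higher, and Emx2os differed by 0.62 ± 0.56. Partner proteins gave 0 higher and 7 lower of 30, with Bcl11a, a zinc finger factor, at -3.90 and Gmnn at -2.98. Downstream genes gave 5 higher and 1 lower of 16, with Cdkn1a, a cell cycle inhibitor, higher by 3.72 and Wnt7a, a signalling protein of the cortex, at -1.63. Mid- and hindbrain factors gave 6 higher and 7 lower of 19, with Irx5 higher by 2.78 and Nkx2-2 at -2.58. Astrocyte markers gave 9 higher and 1 lower of 11, neuronal markers 5 higher and 2 lower of 11 with a median of 0.82, oligodendrocyte markers 0 higher and 4 lower of 12, endothelial markers 3 higher and 0 lower of 5, and neural stem cell markers 2 higher and 4 lower of 18. Their part in the members' values was not tested.

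The genes with the most similar pattern were found by the distance between the 4 levels, each centred on its own mean, among genes seen on the same arrays. For Otx2 the closest of 831 was Ttbk1, at 0.23 on the log2 scale, for Six3 Tspan18, at 0.34, and for Nr2e1 Nudt10, at 0.21. For Lhx2 it was Pcdhac2, at 0.24 among 12477 genes, for Otx1 1600014C10Rik, at 0.44 among 220, and for Dlx1 Gm4419, at 0.34 among 287. Emx2 had Coq7 at 0.04, Pax6 had Hapln3 at 0.11 and Dlx2 had Tapbpl at 0.13. These are likenesses over 4 arrays only, and those of Otx2, Six3, Nr2e1, Otx1 and Dlx1 each include 1 level not well above background, so the exact distances and the choice of the closest gene depend on signal below the floor.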

How the data were processed

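RNA from 4 cultures was labelled with Cy3 and hybridised to 1 array each, per the labels' protocols. The deposited scanner files give intensity per spot (processed signal, background-subtracted by the authors' scanner software, Agilent Feature Extraction 10.7.3.1 per the file headers, 9.1 per the submitters' processing notes), with quality flags deposited beside it as other values. The deposited NSC file holds signals of 3 significant digits and 58 altered gene names. The authors' deposited table of log2 values was used only as an alternative; its differences followed the scanner's (correlation across probes 0.9998 to 1.00), its column medians were 0.25, -0.20, 0.00 and 0.03, and its centring is unknown.

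For each array, the 59305 spots that are not controls gave a 75th percentile (480.0 on NSC, 571 on NSC-Ceacam1L, 439 on NSCL61, 541 on the hairpin array), by which all signals were scaled. Outlier spots were left out, and log2 values of spots of a probe were averaged. No spot was saturated, and 27412 to 29550 probes were well above background. The number of arrays limits the precision. A gene's value is that of its probe with the highest mean over the 4 arrays. Probes were named by accession (27325), symbol (3523) or older symbol (551) in the RefSeq table of GRCm38.p6, and 24282 had no name. A gene was evaluated when seen on at least 1 of the 2 arrays.

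From each gene list, up to 4 called genes were named by size of difference, those seen on both arrays first and then by their bound, beside relatives of the members at their loci or in their families. Some genes that this rule names are not reported here. The 9 genes and the lists were chosen with earlier results of these data known. Alternatives were other scalings (median, quantile, cyclic loess, spike-in), normexp with an offset of 50 in limma 3.58.1 (R 4.3.3), the deposited table, the median over probes, other filters and 1.5-fold; the deposited table with no further shift was added after seeing the data. Python 3.11.15, numpy 2.4.6 and pandas 2.3.3 were used.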

Additional observations from a re-analysis of the deposited data

How the results depend on the processing

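No paired analysis was possible because each group had 1 array, and no replicate could be left out. Of 217 differences of member probes under other settings, 163 moved by less than the modelled error, 54 moved further and none of the called ones changed sign, and 53 of 418 list medians had the other sign. For members the counts called changed as follows. Between the NSC arrays 2 were higher, but 0 with normexp, 1 with the median over probes and 1 when both arrays had to be well above background. In the hairpin comparison that last filter gave 0 higher and 1 lower, in place of 1 and 4. Between NSCL61 and NSC, 4 were higher, but 2 with normexp and 2 with the median over probes; 2 were lower, but 1 with the filter on both arrays and 4 at 1.5-fold.

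Over all genes, 1602 were higher on NSC-Ceacam1L, against 2491 with spike-in scaling, 741 with normexp, 889 with both arrays above background and 2623 at 1.5-fold; 926 were lower, against 611 with cyclic loess, 461 with spike-in scaling, 523 with normexp, 557 with the deposited table set to its 75th percentile, 1476 with no filter on dim probes and 2575 at 1.5-fold. In the hairpin comparison 3784 were lower, against 2356 with both arrays above background. Between NSCL61 and NSC 2199 were higher, against 1376 with normexp, 1396 with both arrays above background and 3572 at 1.5-fold, and 2140 were lower, against 1391 and 3349 with normexp and 1.5-fold. Among called genes, 63.4% were higher between the NSC arrays, but 76.7% with cyclic loess, 84.4% with spike-in scaling and 79.5% with the deposited table set to its 75th percentile, and 65.2% with that table unshifted. The figure was 49.2% in the hairpin comparison, but 64.4% with median and 65.4% with spike-in scaling, and 50.7% between NSCL61 and NSC, but 40.1% with spike-in scaling. Spike-in scaling moved the median over all genes to 0.28, 0.46 and -0.19 in the 3 comparisons. Normexp includes the added offset, which shrinks differences of dim signals. Its share in the changes, and any other cause of them, was not tested. Signal near background limits Dlx1, and every value given as "at least".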
